A study of Mus musculus with 2 samples.

Results

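The genes described here are 8 genes of antigen presentation by major histocompatibility complex (MHC) class II: H2-Aa, H2-Ab1, H2-Eb1, H2-DMa, H2-DMb1, Cd74, Ciita and Ctss. They were chosen by name, and every non-control probe whose RefSeq accession maps to one of them was taken. Of the 18195 genes that could be named on the array, 12401 were measured on both arrays, that is, well above background and not saturated. Among the 8 genes, 7 had a named probe (11 probes in all), 6 were measured on both arrays, Ciita was measured on 1 array only, and no probe could be named for H2-Eb1. RNA came from peeled mouse epidermis in the steady state and was hybridised to 1-colour Agilent arrays, with 1 array per genotype. The control genotype was Nfkbiz flox/flox. The knockout genotype was Nfkbiz flox/flox; K5-cre, so the floxed alleles were common to both groups and the Cre transgene was the labelled difference. The keratin 5 promoter that drives the recombinase is active in basal keratinocytes, and epidermis also holds Langerhans cells and T cells of haematopoietic origin. Nfkbiz encodes IκBζ, a nuclear member of the IκB family. The sources used here do not give the strain, age or sex of the mice, or how many contributed RNA to an array.

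With 1 array per group there was no replicate check, and no difference below was tested. Values after ± are standard errors computed from the error that the scanner software assigns to each signal. They describe technical error alone and say nothing about how far mice differ. Signals are the processed intensities before scaling, and differences are knockout minus control on the log2 scale after each array's signals were divided by their 75th percentile (205 for the control and 239 for the knockout). Nfkbiz had a signal of 3100 in the control and 1760 in the knockout, a log2 difference of -1.04 ± 0.20. The sources used here do not say whether its probe lies inside the deleted part. The keratinocyte genes Krt5 (52200 and 54400) and Krt14 (48500 and 47800) were measured on both arrays, as was the dermal collagen gene Col1a1 (969 and 1116, near a spot marked as non-uniform).

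MHC class II molecules are pairs of an α and a β chain that carry peptides from endocytosed proteins to the surface of antigen-presenting cells, where CD4 T cells read them. The invariant chain, encoded by Cd74, holds new class II molecules in the endoplasmic reticulum and guides them to endosomes. Cathepsin S, encoded by Ctss, trims the invariant chain there, and the H2-DM heterodimer exchanges its last fragment for a peptide. The coactivator encoded by Ciita binds no DNA itself and acts on a promoter-bound complex of RFX, CREB and NF-Y proteins. In resting epidermis the Langerhans cell is the main class II-bearing cell, and keratinocytes can be induced to display class II by interferon-γ.

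The class II chain, DM and invariant chain genes had higher scaled signals on the knockout array, and Ctss did not. H2-DMa, Cd74 and H2-Aa were 1.72-fold, 1.69-fold and 1.60-fold higher, H2-Ab1 was 1.31-fold higher and H2-DMb1 1.13-fold higher. The median difference of the 6 genes measured on both arrays was 0.54, beside -0.04 over all 12401 genes. None of the 6 was at least 2-fold higher and none at least 2-fold lower, where 3.02% and 4.39% of all genes were. At least 1.5-fold higher were 3 of the 6, beside 10.1% of all genes, and 0 of the 6 were at least 1.5-fold lower, beside 13.2%. A log2 difference above 0 was found for 5 of the 6, beside 46.0% of all genes. In bulk epidermis, more cells that express these genes and more RNA per cell cannot be told apart. Because scaling to the median instead of the 75th percentile moves every gene by 0.32, the distance from the median gene is the steadier quantity, and it was 0.58 for the 6 genes under both scalings. Of all genes at least 2-fold apart, 40.8% were higher in the knockout under the 75th percentile and 76.4% under median scaling.

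**Figure D1:**
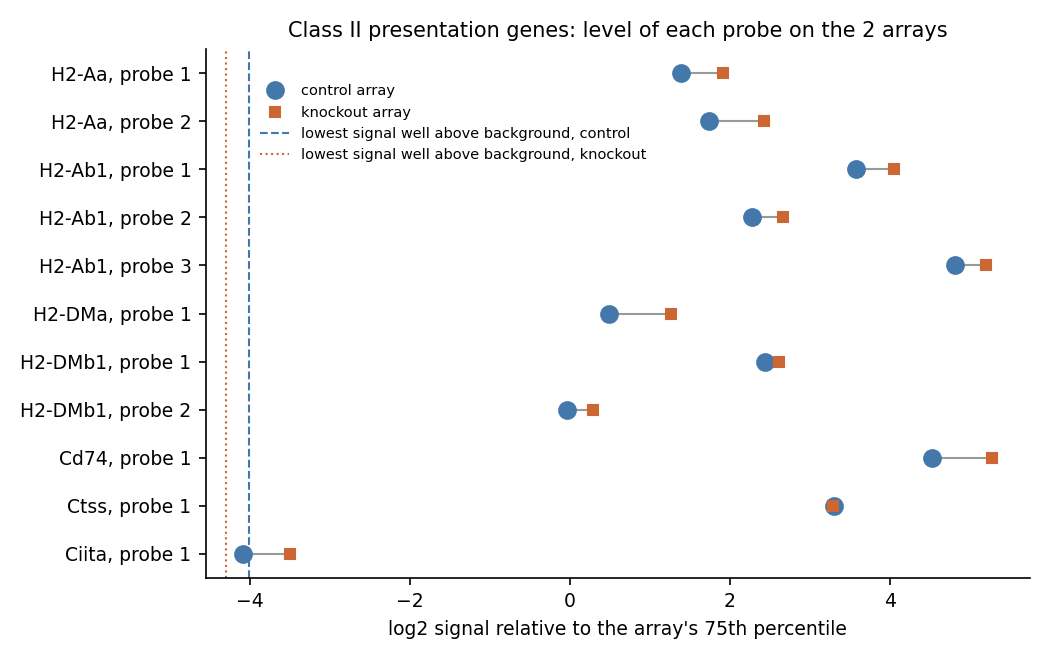
Level of each named probe of the class II presentation genes on the control array (circles) and the knockout array (squares), as log2 signal relative to the array's 75th percentile, with the lowest signal well above background on each array as vertical lines. The 9 probes of H2-Aa, H2-Ab1, H2-DMa, H2-DMb1 and Cd74 lie further right on the knockout array, the Ctss marks coincide, and Ciita lies at the edge of detection.

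The genes of the classical chains share a promoter layout, shown here because it is the part of these genes on which Ciita acts. RefSeq promoter windows of assembly GRCm38.p6 (250 bases before to 50 after a start site) were matched for 5 of the 8 genes, H2-Aa, H2-Eb1, H2-DMa (2 windows), H2-DMb1 and Ctss. Both strands were searched for the letters GNAAC, a core of the RFX-binding X box, followed within 26 to 36 bases on the same strand by GATTGG, a core of the Y box bound by NF-Y. The spacing was set after the sequences of these genes had been seen. H2-Aa, H2-Eb1 and H2-DMb1 held the pair, and so did 3 of 4 related genes that are not among the 8 (H2-Oa, H2-Ob and H2-Eb2). In the stretches below, all upstream of the start site, capitals mark GNAAC and GATTGG.
H2-Aa (chr17:34287855-34287916, minus strand): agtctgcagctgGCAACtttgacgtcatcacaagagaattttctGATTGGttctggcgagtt
H2-Eb1 (chr17:34305764-34305824, plus strand): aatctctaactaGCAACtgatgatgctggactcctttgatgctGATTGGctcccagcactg
H2-DMb1 (chr17:34153085-34153146, plus strand): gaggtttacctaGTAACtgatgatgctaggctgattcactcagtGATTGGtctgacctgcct
H2-Oa (chr17:34092291-34092352, plus strand): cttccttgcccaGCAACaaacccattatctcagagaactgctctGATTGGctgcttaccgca
H2-Ob (chr17:34238806-34238864, plus strand): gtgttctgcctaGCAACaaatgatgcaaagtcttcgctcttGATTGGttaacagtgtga
The starts of the 2 cores lay 29 to 32 bases apart in the genes that held the pair. Of 32851 promoter windows of the same length, 0.667% held it, while GNAAC alone was in 84.8% and GATTGG alone in 16.1%. Neither H2-DMa window held the pair, which says only that these letters are not there at that spacing. The Ctss window held no such pair. It held the letters GAAA, any 2 bases and GAAA, a form of the interferon-stimulated response element, which 3.44% of windows hold on either strand, and capitals mark it here.
Ctss (chr3:95526740-95526785, plus strand): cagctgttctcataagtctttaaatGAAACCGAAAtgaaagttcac

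H2-Aa and H2-Ab1 encode the α and β chains of the mouse class II molecule I-A. The brighter of the H2-Aa probes had a signal of 686 in the control and 1280 in the knockout, a log2 difference of 0.68 ± 0.20. The other H2-Aa probe had signals of 537 and 901, a difference of 0.53. The knockout array was higher at both probes. Among the 12401 genes, 7.71% had a difference at least as high as that of H2-Aa.

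H2-Ab1, read by 3 probes, was higher on the knockout array at each of them. The brightest had signals of 5770 and 8840 (0.39 ± 0.20), another 995 and 1520 (0.39), and the remaining probe a mean of 2453 and 3957 over its replicate spots (0.47). The technical interval of the brightest probe ran from -0.01 to 0.79 and just held 0. The probe with replicate spots was printed 10 times on each array and gives the only measured spot-to-spot spread among these genes. After 1 control spot with a signal of 3020 was left out as an outlier marked by the scanner software, the 9 control spots ran from 2310 through a median of 2420 to 2760, and the 10 knockout spots from 3740 through 3945 to 4420. The scaled log2 values did not overlap, at 3.49 to 3.75 on the control array and 3.97 to 4.21 on the knockout array. The left-out spot had a scaled value of 3.88, also below all knockout spots. At the 9 positions used on both arrays the difference ran from 0.42 to 0.55 with a median of 0.47. At the position of the left-out spot it was 0.10, outside that range. The SD over spots was 0.08 in the control and 0.07 in the knockout. For the difference, the SD over the 9 positions was 0.04, smaller than the error model's 0.20 for a difference. These spots share 1 RNA sample per array, so they describe the measurement and not the spread between mice.

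**Figure D2:**
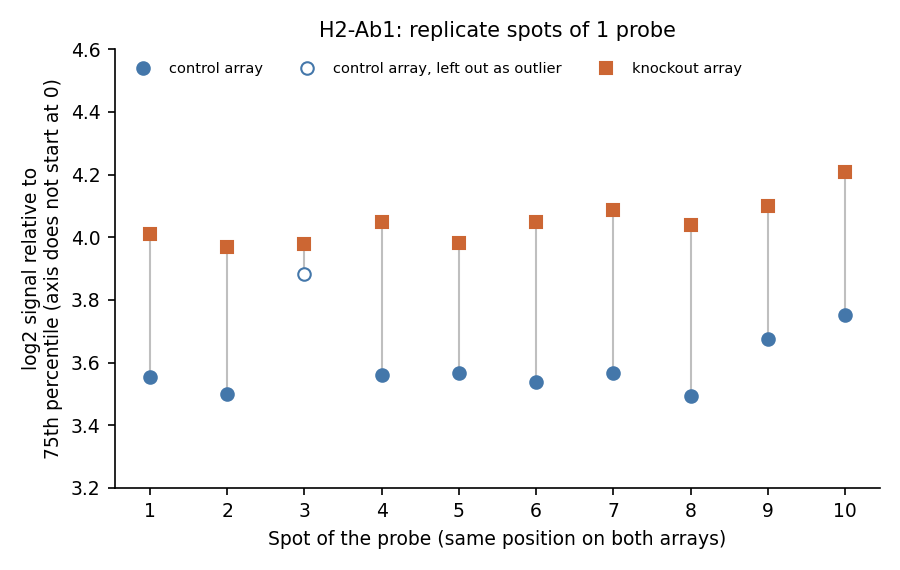
Replicate spots of 1 H2-Ab1 probe, each at the same position on both arrays, as log2 signal relative to the 75th percentile (the axis does not start at 0). All 10 knockout spots (squares) lie above all control spots (circles), including the open circle, which was left out as an outlier.

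H2-DMa and H2-DMb1 encode the α chain and a β chain of the peptide editor H2-DM. H2-DMa had signals of 287 and 575, a difference of 0.78 ± 0.20, the highest of the 6 genes after scaling to the 75th percentile or the median and in the authors' deposited table, while Cd74 was highest under quantile normalization, loess and normexp. A difference at least as high was found for 5.64% of genes. H2-DMb1 had signals of 1110 and 1460 at its brighter probe (0.17 ± 0.20) and 199 and 292 at the other (0.33). Its technical interval at the brighter probe ran from -0.23 to 0.57 and held 0. The partners of the same heterodimer thus differed by 0.61 ± 0.29 from each other on the log2 scale, a comparison within each array that no scaling by a constant can move. With the other H2-DMb1 probe the gap was 0.45 and under normexp 0.51, both inside the 95% interval of the error model. H2-DMb2, which encodes an alternative β chain and is a near copy of H2-DMb1, had signals of 51.5 and 87.5 (0.54 ± 0.23). Probe sequences were not used here, so how far the DMb probes also read each other's transcript was not tested.

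Cd74, the invariant chain gene, had signals of 4720 and 9300 (0.76 ± 0.20), far above the lowest signals called well above background. It was 1.69-fold higher after scaling, and 6.14% of genes had a difference at least as high.

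Ctss, which encodes the protease that degrades the invariant chain, had signals of 2030 and 2340. After scaling the difference was -0.02 ± 0.20, with a technical interval from -0.42 to 0.38. This placed Ctss near the middle of all genes, with 47.7% at least as high. Its sign depended on the scaling, from -0.03 in the authors' deposited table to 0.30 under median scaling. Relative to Ctss on the same arrays, H2-DMa was higher by 0.80 ± 0.29, Cd74 by 0.77 ± 0.29 and H2-Aa by 0.70 ± 0.29.

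Ciita, which encodes the class II transactivator, lay at the edge of detection. Its 1 named probe had a signal of 12.1 on the control array, not well above background, and 21.1 on the knockout array, which was. The lowest signal well above background on the control array was 12.7, and set against it the knockout value was 1.43-fold higher. That is the lowest over the whole array, and it is not the limit of this probe. An Rfx5 probe with a control signal of 20.3 was not well above background. The error model gave ± 0.44 for this pair of dim spots. The technical interval ran from -0.28 to 1.44 and held 0, so size and direction of the difference are poorly fixed.

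In order of difference the genes ran H2-DMa, Cd74, H2-Aa, H2-Ab1, H2-DMb1 and Ctss. Of the 15 pairs among them, 5 differed by more than the 95% interval of the error model, without adjustment for the number of pairs. These were H2-DMa, Cd74 and H2-Aa against Ctss, and H2-DMa and Cd74 against H2-DMb1. Under all 6 scalings, including the 75th percentile, H2-DMa, Cd74 and H2-Aa against Ctss stayed beyond the interval, as did Cd74 against H2-DMb1. H2-DMa against H2-DMb1 was inside it under normexp. H2-DMa, Cd74 and Ctss have 1 probe each, so H2-DMa and Cd74 against Ctss could not be tried with another probe. Median scaling cannot move a gap between genes or their order, and the authors' table repeats the scanner values. Neither is therefore a separate check. Under normexp the gap of H2-DMa to Ctss was 0.58, just beyond the interval. The gap of H2-Aa to Ctss was 0.54 with the other H2-Aa probe, and that of Cd74 to H2-DMb1 was 0.43 with the other H2-DMb1 probe, both inside it. None of the 5 neighbours in this order differed beyond that interval. Ctss was the lowest of the 6 under each scaling, and H2-DMa, Cd74 and H2-Aa lay above H2-Ab1 and H2-DMb1 under each.

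**Figure D3:**
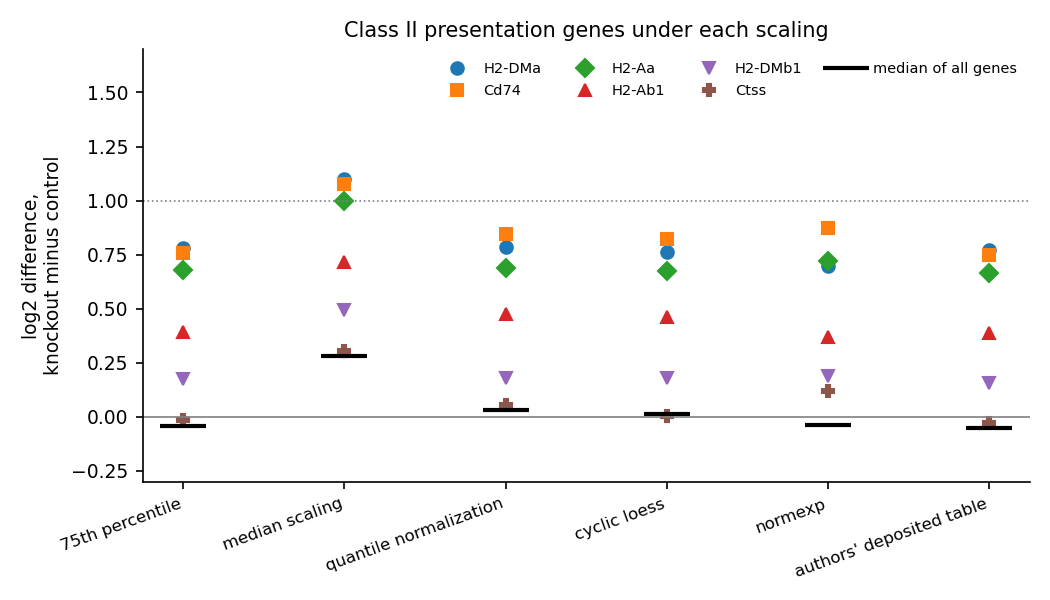
Log2 difference, knockout minus control, of the 6 genes measured on both arrays under the 75th percentile, 4 other scalings or background corrections, and the authors' deposited table, with the median of all genes as a bar. Median scaling lifts all of them by 0.32 together with the median gene, and brings H2-DMa and Cd74 past the dotted 2-fold line.

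Other chains of the class II family were measured at dim probes. H2-Oa, the α chain of H2-DO, an inhibitor of H2-DM in B cells and some dendritic cells, had signals of 51.4 and 87.2 (0.54 ± 0.22). Its partner gene H2-Ob had 28.4 and 32.7 (-0.02 ± 0.36). H2-Eb2 was not well above background on either array. Over H2-Oa, H2-Ob and H2-DMb2 the median was 0.54, with no gene 2-fold apart, and under normexp it was 0.17.

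The promoter-bound factors on which Ciita acts ran from -0.46 to 0.63. Of 7 genes, 6 were measured on both, with 0 at least 2-fold apart and a median of 0.13. The NF-Y subunit genes ran in both directions, with Nfya at -0.46 ± 0.20, Nfyb at -0.28 ± 0.20 and Nfyc at 0.63 ± 0.21. Among RFX subunits, Rfxank had signals of 153 and 231 (0.37 ± 0.21) and Rfxap 620 and 777 (0.10 ± 0.20, its other probe 0.70). Rfx5 was well above background on the knockout array alone, at 18.8, and its control signal of 20.3 allows no fold to be given. Creb1, whose product binds the X2 box, had a difference of 0.16 ± 0.20.

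The route by which interferon-γ induces Ciita, from receptor to transcription factors, held differences beyond 2-fold in both directions. Irf1, a transcription factor that activates the inducible Ciita promoter, had a signal of 618 in the control and 6110 in the knockout. It was 8.48-fold higher (3.08 ± 0.20), and its other probe gave 3.23. The kinase gene Jak2, which acts at that receptor, was lower, with signals of 781 and 312 (-1.55 ± 0.21, its other probe -1.20). The median of the 9 genes in this list was 0.39. The receptor genes Ifngr1 (-0.47 ± 0.20) and Ifngr2 (-0.04 ± 0.20), Jak1 (-0.40 ± 0.20), the feedback inhibitor Socs1 (0.39 ± 0.21), the cofactor Usf1 (0.49 ± 0.21) and Prdm1, whose product represses Ciita (0.42 ± 0.21), were all within 2-fold. Whether the Irf1 signal arose in the cells that carry class II cannot be read from bulk RNA.

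Genes of endolysosomal processing did not have higher signals as a set. All 13 genes of endolysosomal processing were measured, none was 2-fold apart after scaling to the 75th percentile, and their median was -0.23, which was 0.09 under median scaling. The asparagine endopeptidase gene Lgmn had signals of 998 and 748 (-0.64 ± 0.20). The cathepsin genes Ctsb, Ctsf, Ctsl, Ctsh and Ctsz ran from -0.37 to -0.10, and Ctsd, with signals of 12000 and 16400, was at 0.23 ± 0.20. For Ctsb the other probe was at 0.37, of opposite sign, and for Ctsz at 0.62. Ifi30, the interferon-induced thiol reductase of the class II pathway, had signals of 1840 and 2390 (0.16 ± 0.20). Lamp1, a lysosomal membrane protein gene, had signals of 4750 and 10800 (0.96 ± 0.20) and was past 2-fold under median scaling (1.28), quantile normalization (1.05), loess (1.03) and normexp (1.11), while Lamp2 was at -0.55 ± 0.20. Keratinocytes express most of these genes strongly, and their signals are not those of antigen-presenting cells alone.

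Among turnover and sorting genes, Marchf1, which encodes the ubiquitin ligase that sends class II to lysosomes, had signals of 46.8 and 77.9 (0.51 ± 0.23, but 0.10 under normexp). Its relative Marchf8 had 2600 and 4280 (0.50 ± 0.20). None of the 5 genes in this list was 2-fold apart, and the median was 0.20. Costimulatory and adhesion genes of antigen-presenting cells were measured for 5 of 8 genes, with a median of 0.86 (0.31 under normexp). Cd48 was at least 2-fold higher (51.6 and 124, 1.04 ± 0.24), although another of its probes gave 0.24 and normexp gave 0.41. Cd86 had signals of 42.5 and 91.8 (0.89 ± 0.24, its other probe 0.21) and Icam1 101 and 213 (0.86 ± 0.21). Cd83, a maturation marker of dendritic cells, was at -0.72 ± 0.21 and Cd274, which encodes PD-L1, at -0.66 ± 0.23. Pdcd1lg2, measured on the control array alone, was at least 3.30-fold lower, and Cd40 and Cd80 were not well above background on either array. Cd4, whose product binds class II on T cells, was also below that level on both arrays.

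The class II genes lie in a stretch of chromosome 17 that also holds genes of class I peptide supply, so the neighbours allow a comparison within the locus. The order of genes was taken from assembly GRCm38.p6, and the stretch, from H2-Oa to H2-Eb2 with 5 coding genes on each side, was chosen after the class II values were known. Between the DM genes and H2-Ob lie the immunoproteasome subunit genes Psmb9 and Psmb8 and the peptide transporter genes Tap1 and Tap2. Psmb9 had signals of 1140 and 2830 (1.09 ± 0.21) and Psmb8 900 and 2280 (1.12 ± 0.20). Tap1 was at 0.62 ± 0.20 and Tap2 at 0.89 ± 0.21. The median of these 4 genes was 0.99, against 0.54 for the 7 class II genes of the stretch measured on both arrays. Of the flanking genes, 5 of 10 were measured, with a median of -0.03 and a range from -0.38 for Col11a2 to 0.68 for Rxrb. Differences above 0 were found for 6 of the 7 class II genes and for 4 of 4 of these neighbours, beside 46.0% of all genes. H2-Aa, H2-Ab1, H2-DMa and H2-DMb1, among these 7, were already counted above, so the counts are not independent. The wider list of class I loading genes had a median of 0.11 over 14 genes with none 2-fold apart. In it Erap1 (0.93 ± 0.21), which trims peptides for class I, and Tapbpl (0.61 ± 0.21) lay above, while the class I heavy chain genes H2-K1 and H2-D1 were at -0.09 ± 0.20 and -0.11 ± 0.20, below 0 at the probes used, while other H2-K1 probes ran from 0.24 to 0.44. Nlrc5, the class I counterpart of Ciita, had signals of 188 and 214 (-0.04 ± 0.21).

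**Figure D4:**
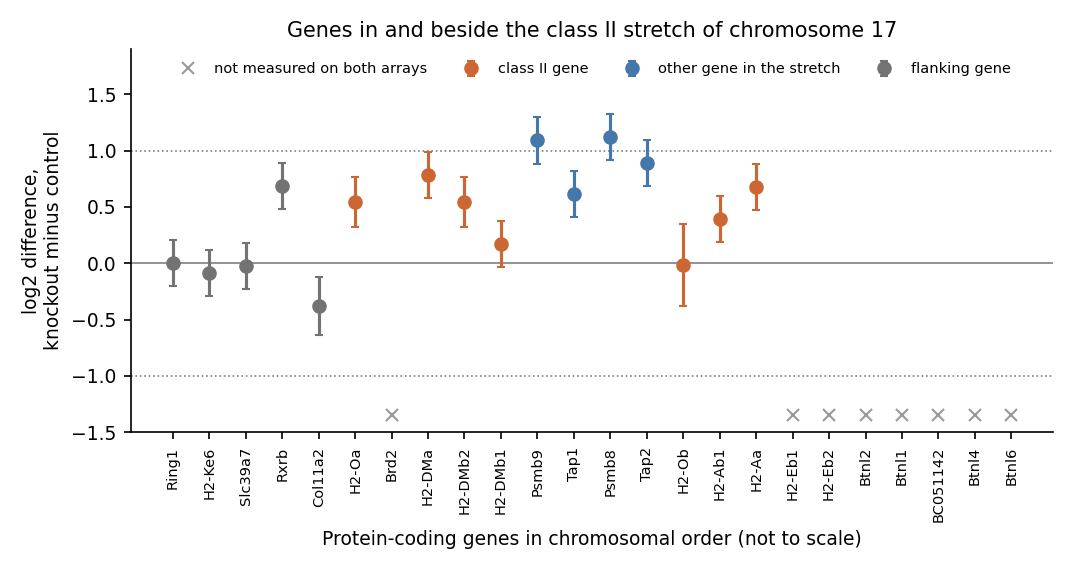
Log2 difference, knockout minus control, of protein-coding genes in chromosomal order (not to scale) in and beside the class II stretch of chromosome 17, with error bars of ± 1 standard error from the error model and crosses for genes not measured on both arrays. Psmb9 and Psmb8 lie past the dotted 2-fold line, above the class II genes around them.

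Markers of leucocytes had higher signals on the knockout array together with the class II genes. All 8 pan-leucocyte genes were measured and had differences above 0, with a median of 0.70 and none 2-fold apart (4 under median scaling), and their summed scaled signal was 8.66 in the control and 14.8 in the knockout. Ptprc, which encodes CD45, had signals of 400 and 822 (0.82 ± 0.20), Coro1a 350 and 802 (0.98 ± 0.20) and Lcp1 317 and 646 (0.81 ± 0.20). Cd74 (0.76) and H2-DMa (0.78) differed by about as much as this Ptprc probe and H2-Aa (0.68) by somewhat less. H2-Ab1 (0.39), H2-DMb1 (0.17) and Ctss (-0.02) lay further below it. Another Ptprc probe, with signals of 42.3 and 71.4, was at 0.53, below Cd74, H2-DMa and H2-Aa. The order of these genes relative to Ptprc therefore depended on the Ptprc probe, and gaps to Ptprc were not tested. Within the pan-leucocyte list, Laptm5 (0.04, its other probe 0.17) and Was (0.19, its other probe 0.57) also lay below the brightest Ptprc probe. Ptpn6 was at 0.805 at its brighter probe and -0.048 at the other. The part of leucocyte number in the class II values was not tested.

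Of 15 genes marking Langerhans cells, all were measured, 2 were at least 2-fold higher and 1 at least 2-fold lower, with a median of 0.23 (0.04 under normexp) and a summed scaled signal of 138 in the control and 125 in the knockout. That sum and the list are weakly specific, since keratinocytes also express Epcam, Cd24a, Mfge8, Ahr, Id2 and Cxcl16. Cd207, the langerin gene and the defining marker, had signals of 166 and 608 and was 3.14-fold higher (1.65 ± 0.21), beyond any of the class II genes. Id2 was 3.44-fold higher and Cxcl16 2.73-fold lower. Of the other 12 genes, 7 lay above 0, from 0.11 for the integrin gene Itgax to 0.80 for Cd52, with the receptor gene Csf1r at 0.53 ± 0.20. The other 5 lay below 0, with Cd24a at -0.74 ± 0.20, Epcam at -0.38, Ahr at -0.26, Mfge8 at -0.14 and Runx3 at -0.13 ± 0.29. The part of Langerhans cell number in the class II values was not tested.

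Defining markers of other class II-bearing cells were at or near background. Of 12 dermal dendritic cell genes, 6 were measured, with a median of -0.25. Flt3 had signals of 14.4 and 14.1, just above background, and Zbtb46, Cd209a and Clec10a were not well above background on either array. Irf8 alone was at least 2-fold higher (31.5 and 81.7, 1.15 ± 0.24), but was at 0.45 under normexp, and its other probe (15.4 and 15.6) was not well above background in the control. The cross-presenting dendritic cell marker Xcr1 was at -0.85 ± 0.24. Of 12 monocyte and macrophage genes, 7 were measured, with a median of -0.19. Adgre1, a macrophage marker that Langerhans cells also express, had signals of 402 and 653 (0.48 ± 0.20), C1qa was 2.17-fold lower (-1.12 ± 0.31), and Mrc1, Cd163 and Lyz2 were not well above background. That C1qa call was lost under median scaling (-0.80), quantile normalization (-0.87), loess (-0.92) and normexp (-0.45). Of 8 B cell genes, 2 were measured and none was 2-fold apart. Cd79a had signals of 26.7 and 34.6 (0.15 ± 0.27), and Cd79b and Pax5 were not well above background on either array. T cell genes had a median of 0.60 over 8 measured of 10, with Itgae 2.10-fold and Cd247 2.30-fold higher, the other Cd247 probe being at -0.32. Of these 8 genes, 7 lay above 0, with Cd3d at 0.04 ± 0.20. Thy1, near a spot marked as non-uniform, lay below 0, with signals of 2110 and 2050 (-0.26 ± 0.20, its other probe -1.23). Under normexp the T cell median was 0.27, with Itgae at 0.78, Cd247 at 0.76 and 0 genes 2-fold higher. The 11 keratinocyte genes had a median of -0.16, with none 2-fold apart. Of 6 dermal fibroblast genes, 5 were measured, with a median of -0.32 and none 2-fold apart, and of 6 endothelial genes 1 was measured on both arrays. The endothelial gene Emcn had signals of 55.6 and 3.38, the latter not well above background, and was at least 5.36-fold lower. The medians of the dermal dendritic cell, macrophage and keratinocyte lists were above 0 under median scaling, where that of the dermal fibroblast list was 0.003. The median of the dermal dendritic cell list was above 0 also under quantile normalization and loess.

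**Figure D5:**
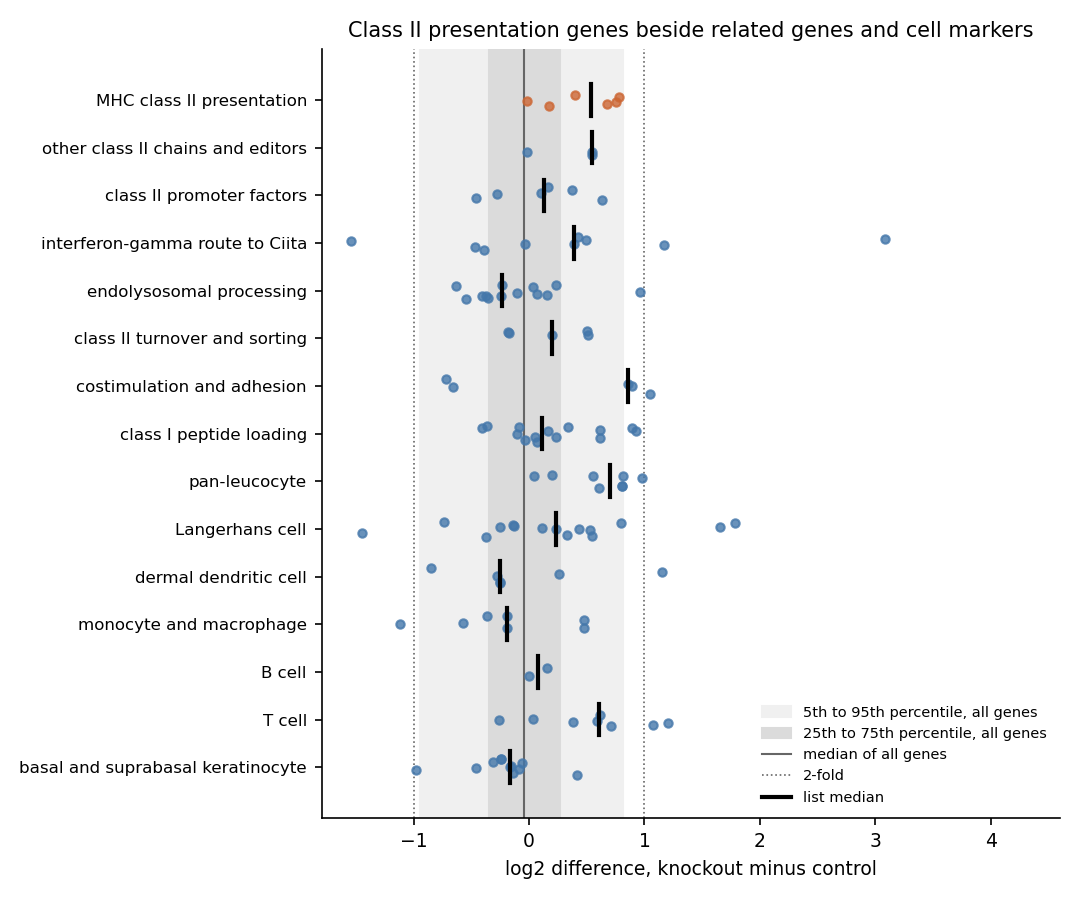
Log2 difference, knockout minus control, of the genes measured on both arrays in each list (points) with the list's median (black bars), against the central ranges and the median of all 12401 genes (shading and line). The class II presentation genes run from -0.02 to 0.78, the pan-leucocyte genes from 0.04 to 0.98, and Irf1 lies far to the right at 3.08.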

How the data were processed

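Epidermis was lifted off after ammonium thiocyanate treatment of skin, and amplified RNA carried Cy3, per the labels' protocols. Per the file headers, the deposited scanner files hold spot intensity values from Agilent Feature Extraction 10.7.3.1, background-subtracted and detrended within each array, on a design annotated on mm9. Both arrays share 1 slide and 1 scan day per the file headers. The authors' deposited table holds log2 values centred over the 2 arrays for every probe (largest row sum 1e-06). Set against the scanner values over all probes, its differences gave r = 1.00 (genes are not independent replicates) and a median offset of -0.01, which settles its direction and log2 scale. Levels cannot be had from it.

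Control spots and outlier spots were dropped, each probe's spots averaged, and log2 signals were taken minus each array's 75th percentile over non-control spots. Probes were named through RefSeq accessions of assembly GRCm38.p6 (26640 of 41116 probes, 64.8%). A gene was represented by its brightest measured probe. Of all probes, 56.2% (control) and 56.3% (knockout) gave a signal well above background, and 0 were saturated. The number of arrays limits the precision, and with 1 array per group no p-value was computed. A bound, written as at least N-fold, sets the measured signal against the lowest signal well above background on the other array. That signal is the lowest over the whole array, so a bound is approximate for a single probe. The alternatives tried were quantile normalization, cyclic loess, scaling to the median, the authors' deposited differences, normexp (offset 50, from median spot signals, as no mean signal is in the files; limma 3.58.1, R 4.3.3), the mean over probes, other filters and fold thresholds of 1.5 and 3. The call code was tested on simulated data. The code ran in Python 3.11.15 with matplotlib 3.10.9, pandas 2.3.3 and numpy 2.4.6.

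The 8 genes and the lists were chosen with earlier results of these data known. Named were all 8 genes, Nfkbiz, measured genes of the class II lists, and of the other lists the genes 2-fold apart, up to 4 with the largest differences and the defining markers Cd207, Ptprc, Adgre1, Flt3, Krt5 and Krt14. Further genes named (Itgax, Csf1r, Cd24a, Epcam, Ahr, Mfge8, Runx3, Emcn, Nlrc5, H2-K1, H2-D1, Col1a1, Thy1, Cd3d, Laptm5, Was, the genes of the chromosome 17 stretch and markers not above background) were chosen after their values were seen. Some genes of the lists are not reported here. With 2 arrays a pattern is 1 difference, so no gene was named for likeness to these genes.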

Additional observations from a re-analysis of the deposited data

How the results depend on the processing

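Leaving out probes within 3 rows and 3 columns of a non-uniform spot was chosen after seeing the data, and no probe of the 8 genes lay there. Recomputing the pairs of class II presentation genes under other scalings and probes was also chosen after seeing the data. No paired analysis was possible because neither genotype was hybridised more than once, and no replicate could be left out. The median of the 6 class II presentation genes (0.54) ran from 0.52 in the authors' deposited table to 0.86 under median scaling, where Nfkbiz was at -0.72 in place of -1.04. Class II presentation genes at least 2-fold higher numbered 2 under median scaling and 0 under the other scalings, and 3 at a threshold of 1.5-fold, against 0. All genes at least 2-fold higher and lower (375 and 545) became 181 and 237 with normexp, 952 and 294 with median scaling, 570 and 830 once genes measured on a single array were let in, 667 and 1420 with no filter on background, 1253 and 1639 at 1.5-fold, and 105 and 188 at 3-fold. Counts grow or shrink with the threshold and the number of genes by construction. Elsewhere the cause was not tested. Of 42 values of single class II presentation genes under other settings, 38 kept their sign and 36 moved by less than 1 standard error. The 6 that moved more are those of median scaling, and the sign changes are all of Ctss. Part of this agreement was fixed in advance. The authors' differences repeat the scanner values up to an offset, and leaving out probes near non-uniform spots removed none of these genes' probes. The mean over probes changes nothing for H2-DMa, Cd74 and Ctss, which have 1 probe each. Dim probes are the least certain, as for Ciita, H2-Ob and H2-Oa.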
